A study of Mus musculus with 8 samples.

Results

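The livers described here were those of Pemt-/- mice at 1, 2, 3 and 4 weeks of a high fat-high sucrose (HFHS) diet, chosen by the genotype and week in the array labels. They were 4 of the 8 arrays of the series, which held 1 array per week and genotype, and the Pemt+/+ arrays served only in an alternative fit. The mice were males fed D12331 chow, the deletion was in the whole body, and total RNA of liver was hybridised as biotinylated cRNA to Affymetrix expression arrays. Per the methods, livers of 4 mice of each genotype were taken over the 4 weeks, and whether each array holds 1 of them is not stated. Their strain and their age at the start of the diet are given in none of the sources used here, and no Pemt-/- liver before the diet was among the samples, so each week cannot be told apart from its array and its mice.

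Phosphatidylethanolamine N-methyltransferase, the product of Pemt, sits in the endoplasmic reticulum of hepatocytes and methylates phosphatidylethanolamine to phosphatidylcholine. Phosphatidylcholine coats the lipoproteins that carry fat out of the liver, and without the enzyme the liver depends on choline from the diet to make it. A diet rich in fat and sucrose loads hepatocytes with triglyceride. In fatty livers that become inflamed, monocytes enter and mature into lipid-associated macrophages, resident Kupffer cells are lost, stellate cells lay down matrix, and hepatocytes switch on programmes of stress and division.

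The probe set of Pemt read 237, 203, 201 and 255 intensity units at weeks 1, 2, 3 and 4, in that order, as in every such series of values below. No source used here says if its probes fall within the part that was deleted. The hepatocyte genes Alb, Apoa1 and Ttr were among the brightest on all 4 arrays, and the Y-linked gene Eif2s3y was high on all of them. Every array had been scaled by the authors to a trimmed mean intensity of 500, their medians lay between 73.8 and 81.3, and the 6 pairs of arrays correlated with Pearson's r between 0.967 and 0.983 across probe sets. The array of week 2 differed from the others in a technical measure, since its 14 hybridisation spike-in probe sets stood at 1.211 times their mean over the 4 arrays against 0.932 to 0.95 at the other weeks. It was also the array with the largest share of its signal in the 100 brightest probe sets, 10.48% against 9.012% to 9.224%. The part of these differences in the values of week 2 was not tested. The ratio of 3′ to 5′ probe sets, a sign of RNA quality, ran from 0.794 to 1.155 for Gapdh and from 2.059 to 2.673 for Actb, lowest at week 1 for both.

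Between the early weeks (1 and 2) and the late weeks (3 and 4) a minority of genes passed the test, with large differences. Intensities were compared as log2(intensity + 16), a scale that understates the change of dim genes, with limma over 27022 probe sets. In the late weeks 122 probe sets (0.451%) were higher and 75 (0.278%) were lower at an adjusted p under 0.05. With each gene read through its probe set of highest mean, 81 of 12908 genes (0.628%) rose and 47 (0.364%) fell. The smallest called difference was 0.81 on the log2 scale, and the median size was 1.35. No probe set (0%) passed for the change per week in the limma fit of 4 weeks, where the lowest adjusted p was 0.0532 and 2692 probe sets had an unadjusted p under 0.05. Read by gene, that unadjusted p went with an upward change in 873 genes (6.76%) and a downward one in 639 (4.95%), the background for such counts in the lists below. The change per week is therefore described by values, and "rose" and "fell" below refer to the late against the early weeks. Both late arrays lay above both early arrays in 3307 genes (25.6%) and below them in 2329 (18%), which is the background for any count of genes that do not overlap.

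These calls rested on 2 arrays on each side and on what limma borrows across probe sets. For a single gene an exact two-sided permutation test cannot give a p under 0.333 with 2 arrays against 2, or under 0.0833 over the 4 ordered weeks. With the variance prior set equal at all intensities 0 probe sets passed, while 2618 had an unadjusted p under 0.05, and with dim probe sets kept in, 5 rose and 3 fell. Without the array of week 1, 2, 3 or 4 the numbers higher and lower were 435 and 190, 208 and 128, 157 and 148, and 54 and 55. For the change per week, leaving out week 1 gave 554 rising and 486 falling probe sets, leaving out week 2 gave 516 and 443, leaving out week 3 gave 58 and 68, and leaving out week 4 gave 0 and 0. Of the 128 called genes, 47 stayed called whichever single week was left out, and none turned its direction. Leaving out a week leaves 1 array on a side, which is then assumed to vary like the pair on the other. Early and late arrays did not overlap in any of the 122 higher and 75 lower probe sets. Leaving out a week could therefore not turn a direction.

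**Figure D1:**
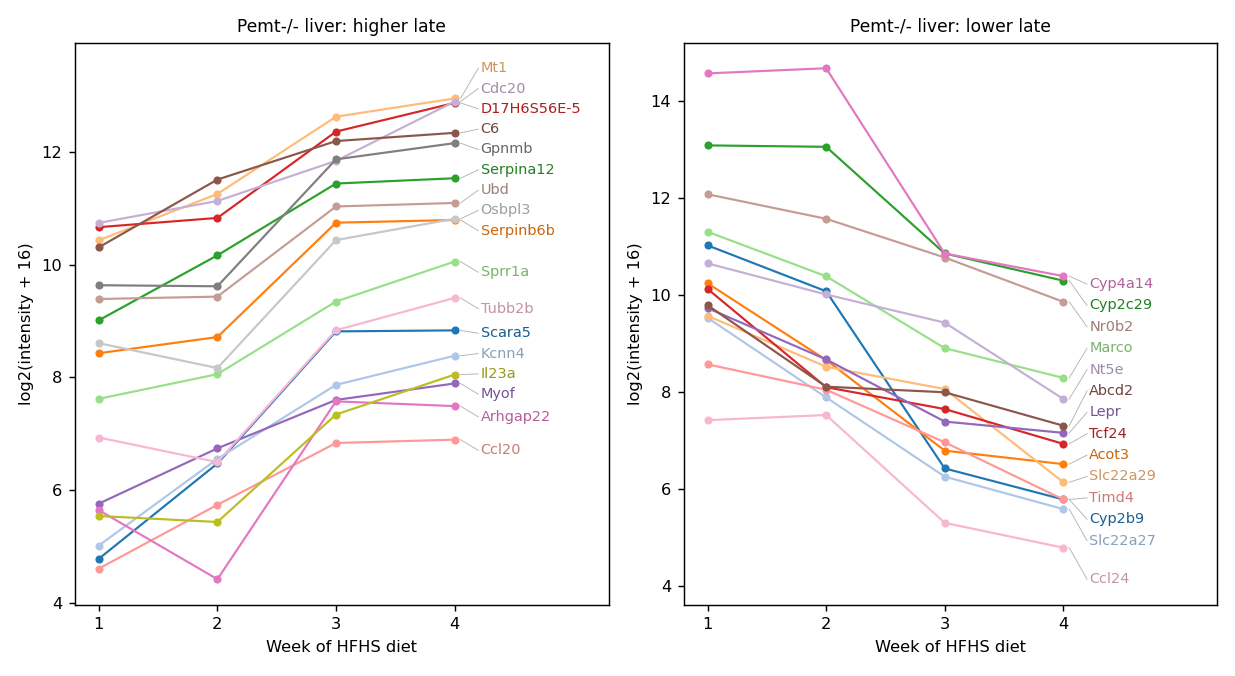
Level of the genes with the largest differences or ordered changes in Pemt-/- liver at each week of the diet, as log2(intensity + 16), with genes higher in weeks 3 and 4 on the left and lower on the right. Each point is 1 array and each line joins the weeks of 1 gene, so levels can be compared along a line but not between lines. Cyp4a14 read 26010 units at week 2 and 1835 at week 3, while Mt1, Serpina12 and Marco moved the same way at every step.

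The genes that rose most came from several processes, and each was low on both early arrays and high on both late ones. Scara5, a scavenger receptor that takes up ferritin, read 11.6, 72.9, 435 and 440.2 units. Tubb2b, a beta-tubulin, read 106, 74.4, 441 and 664. Gpnmb, a glycoprotein of lipid-laden macrophages, read 778, 768, 3714 and 4536. For these genes the late level was a fold of 9.16, 5.30 and 5.22 over the early one (log2 differences of 3.19 ± 0.46, 2.41 ± 0.27 and 2.38 ± 0.17, SE, 2 arrays against 2), with limma adjusted p of 0.0232, 0.00845 and 0.00187. Osbpl3, an oxysterol-binding protein homologue, read 374, 271, 1367 and 1781 units and was 4.71-fold higher late (adjusted p = 0.00521). Arhgap22, which switches off Rac, read 34.1, 5.44, 175 and 164 and was 5.65-fold higher (adjusted p = 0.0396). Il23a, a subunit of the cytokine interleukin 23, read 30.6, 27.3, 146 and 249 and was 4.61-fold higher (adjusted p = 0.0270). Scara5 at week 1 and Arhgap22 at week 2 lay below the pseudocount of 16, so both folds leaned on it. The call of Il23a was lost without week 4 (adjusted p = 0.134), the log2 difference of Scara5 ran from 2.35 without week 1 to 4.04 without week 2, and that of Arhgap22 from 1.89 without week 2 to 3.11 without week 1. For Scara5 and Gpnmb 1 of the 2 probe sets tested passed, and for Osbpl3 both did.

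The genes that fell most were led by enzymes and transporters of the hepatocyte. Cyp4a14, a fatty acid omega-hydroxylase that is a classical target of the receptor PPAR alpha, read 24159, 26010, 1835 and 1324 units. Cyp2b9, a cytochrome P450 that is higher in female liver, read 2063, 1064, 70.2 and 39.4. Cyp2c29, another cytochrome P450, read 8639, 8465, 1836 and 1240.2. Cyp4a14 and Cyp2c29 were level over the early weeks and low on both late arrays, while Cyp2b9 was lower at each week than at the one before. Late levels were 15.9-fold lower for Cyp4a14, 21.7-fold lower for Cyp2b9 and 5.62-fold lower for Cyp2c29 (log2 differences of -3.99 ± 0.18, -4.44 ± 0.33 and -2.49 ± 0.19, SE), with limma adjusted p of 6.65e-05, 0.00197 and 0.00197. The Cyp2b, Cyp2c and Cyp4a families have close copies whose probes can share sequence, so the family member behind each value is uncertain. Acot3, an acyl-CoA thioesterase of peroxisomes, read 1194, 389, 95.1 and 75.7 and was 6.94-fold lower late (adjusted p = 0.0277). Slc22a27, an organic anion transporter, read 723, 221, 60.7 and 32.3 and was 6.89-fold lower (adjusted p = 0.0396). For both, week 1 lay far above week 2, and their log2 differences of -2.79 and -2.78 became -2 and -1.96 without week 1, and -3.58 and -3.6 without week 2. The probe sets of Acot3 and Slc22a27, like that of Slc22a29 below, are of kinds that can match near copies, so the same uncertainty holds. Ccl24, a chemokine that attracts eosinophils, read 156, 169, 23.7 and 11.8, was 5.36-fold lower (adjusted p = 0.0225), and lost its call without week 2 (adjusted p = 0.0713).

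Some genes moved the same way at each of the 3 steps between weeks by at least 1 on the log2 scale in all, 141 upward (1.09% of genes) and 117 downward (0.906%). Because no probe set passed for the change per week, these are values and not calls of a trend. Mt1, a metallothionein that binds zinc and copper, read 1365, 2422, 6282 and 7867 units. Serpina12, the adipokine vaspin, read 501, 1131, 2755 and 2941, and Sprr1a, a protein of cornified envelopes, read 181, 250.4, 634 and 1046. All 3 climbed at every step, by 2.51, 2.52 and 2.43 on the log2 scale from week 1 to week 4, and all 3 rose in the late against the early weeks (limma adjusted p of 0.0146, 0.0350 and 0.0232). Serpinb6b, an inhibitor of serine proteases, read 329, 404, 1697 and 1754, and Ubd, a ubiquitin-like protein induced by cytokines, read 655, 675, 2075 and 2166. Both made nearly the whole climb between weeks 2 and 3, and both rose (adjusted p of 0.00265 and 0.00521). D17H6S56E-5 read 1605, 1799.8, 5228 and 7444 and rose on both of its probe sets (adjusted p = 0.00674 for the brighter). Kcnn4, a calcium-activated potassium channel, read 16.4, 78.1, 218 and 318, the membrane repair protein Myof read 38.3, 91.1, 178 and 222, the chemokine Ccl20 read 8.43, 37.5, 98.3 and 103 and the complement component C6 read 1250.2, 2893, 4653 and 5149.6. These 4 also climbed at every step, and did not pass the test of the late against the early weeks (adjusted p of 0.0659, 0.120, 0.156 and 0.119).

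Among the ordered falls were receptors of macrophages and genes of fatty acid handling. Marco, a scavenger receptor of Kupffer cells, read 2508, 1322, 464 and 298 units, and Lepr, the leptin receptor, read 834, 392, 152 and 127. Both dropped at each step and fell in the late weeks (limma adjusted p of 0.0188 and 0.0384), Marco on both of its probe sets and Lepr on 1 of 3. Nr0b2, the nuclear receptor that holds down bile acid synthesis, read 4294, 3022, 1732 and 913, and Nt5e, an ectoenzyme that makes adenosine, read 1592, 1015, 674 and 216. Timd4, a Kupffer cell receptor for phosphatidylserine, read 365, 249, 109 and 39.4. These 3 dropped at every step without passing the test of the late against the early weeks (adjusted p of 0.0571, 0.154 and 0.0676). Slc22a29, an organic anion transporter, read 745, 352, 252 and 54.8, the peroxisomal fatty acid transporter Abcd2 read 869, 261, 239.5 and 143 and the transcription factor Tcf24 read 1101, 259, 185 and 106. Tcf24 and Abcd2 made most of their drop before week 2, and Slc22a29 made a large drop after week 3 (adjusted p of 0.225, 0.333 and 0.199), though 1 of the 4 probe sets of Abcd2, a dimmer one, passed.

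Macrophage genes were among those that passed in both directions, with 6 lipid-associated macrophage and 8 general myeloid genes that rose and 4 Kupffer cell genes that fell. The lists here and below were chosen with earlier results of these data known, so their counts describe them and are no independent evidence. Of the 15 lipid-associated macrophage genes tested, 6 rose and 0 fell, against 0.628% and 0.364% of all genes. Both late arrays were above both early arrays for 13 of them, and their median difference was 0.81 on the log2 scale, against 0.04 over all genes. Trem2, the lipid-sensing receptor of these cells, read 194, 117, 616 and 618 units, Lgals3, a galectin secreted by macrophages, read 2314, 2157, 8064 and 9208, and Mmp12, the macrophage elastase, read 786, 512, 1615 and 1762. On each both early arrays lay well below both late ones, which stood at 3.79, 3.84 and 2.62 times the early level (limma adjusted p of 0.0149, 0.00197 and 0.0288). Lpl, which frees fatty acids from lipoproteins, read 5764, 5385, 9837 and 9868 and rose 1.77-fold, and Lgals1, another galectin, read 5528, 5326, 9549 and 9499 and rose 1.75-fold (adjusted p = 0.0395 for each). Itgax, the integrin CD11c, read 239, 329.8, 512 and 518, and Atp6v0d2, a proton pump subunit, read 258, 304, 414 and 512; neither passed (adjusted p of 0.157 and 0.245), though the dimmer of the 2 probe sets of Atp6v0d2 did. Without week 4 the calls of Mmp12, Lpl and Lgals1 were lost (adjusted p of 0.0531, 0.332 and 0.340), and without week 3 those of Lpl and Lgals1 (0.188 and 0.204). In RNA of whole liver, more or fewer cells of a type cannot be told apart from more or less RNA per cell.

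Of the 21 monocyte and general myeloid genes tested, 8 rose and 0 fell, and both late arrays were above both early arrays for 18. Cd14, a receptor for bacterial lipopolysaccharide, read 573, 399.9, 1313 and 1975 units and rose 3.29-fold (limma adjusted p = 0.0225). Ctss, the lysosomal protease cathepsin S, read 6328, 5794, 12613 and 13948 and rose 2.19-fold (adjusted p = 0.0137). Lyz2, a lysozyme of myeloid cells, read 5144, 3978, 9900.1 and 10191 and rose 2.22-fold (adjusted p = 0.0225), though its probes may also read the near copy Lyz1. All 3 had their lowest value at week 2 and their highest at week 4. The chemokine receptor Cx3cr1 read 175, 143, 400.4 and 485, the membrane protein Ms4a7 read 387, 425, 865 and 1056, and the pore-forming protein Mpeg1 read 4398, 4041, 7866 and 8737. The signalling adaptor Tyrobp read 2300.2, 2026, 3998 and 4071, and the endosomal protein Cd68 read 775, 775, 1478 and 1461. These 5 also rose, by 0.90 to 1.39 on the log2 scale, with adjusted p from 0.0261 to 0.0445. Cd14 kept its call whichever week was left out, whereas without week 4 the calls of the other 7 were lost (adjusted p from 0.0695 for Lyz2 to 0.292 for Cd68), and without week 3 those of Tyrobp, Mpeg1 and Cd68 (0.134, 0.0507 and 0.187). Laptm5, a lysosomal membrane protein, read 1651, 1962, 3136 and 3620.5 and did not pass (adjusted p = 0.0532). Adgre1, the pan-macrophage receptor that the study followed as protein, read 1337, 916, 1121 and 1139, and the early and late arrays overlapped (difference of 0.03 ± 0.20, SE, adjusted p = 0.978).

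In the Kupffer cell list 4 of 14 genes fell and 0 rose, both late arrays were below both early arrays for 10 and above them for 2, and the median difference was -0.97. The pair that read higher late was C6, with the values given earlier, and Id3, an inhibitor of transcription factors, at 3377, 2210.4, 3862 and 3467 units (adjusted p = 0.529). Besides Marco, Fcna, a ficolin of Kupffer cells, read 1866, 1706, 705 and 687 units, Clec4f, their galactose-binding lectin, read 2486, 2779.6, 1262 and 1176, and Cd5l, a secreted protein that keeps macrophages alive, read 7264, 6307, 3706 and 2926. The 2 early arrays were high and the 2 late arrays low for all 3, and late levels were 2.53, 2.14 and 2.05-fold lower (limma adjusted p of 0.0122, 0.0231 and 0.0336). The calls of Clec4f and Cd5l were lost without week 4 (adjusted p of 0.117 and 0.262). Vsig4, a complement receptor, read 3424, 2487, 1596 and 1306 and dropped at each week, with an adjusted p of 0.0636. The summed intensity of the 14 Kupffer genes was 36208, 30485, 26015 and 23793 over the weeks, while that of the 15 lipid-associated macrophage genes was 49412, 48192, 78353 and 81981.

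**Figure D2:**
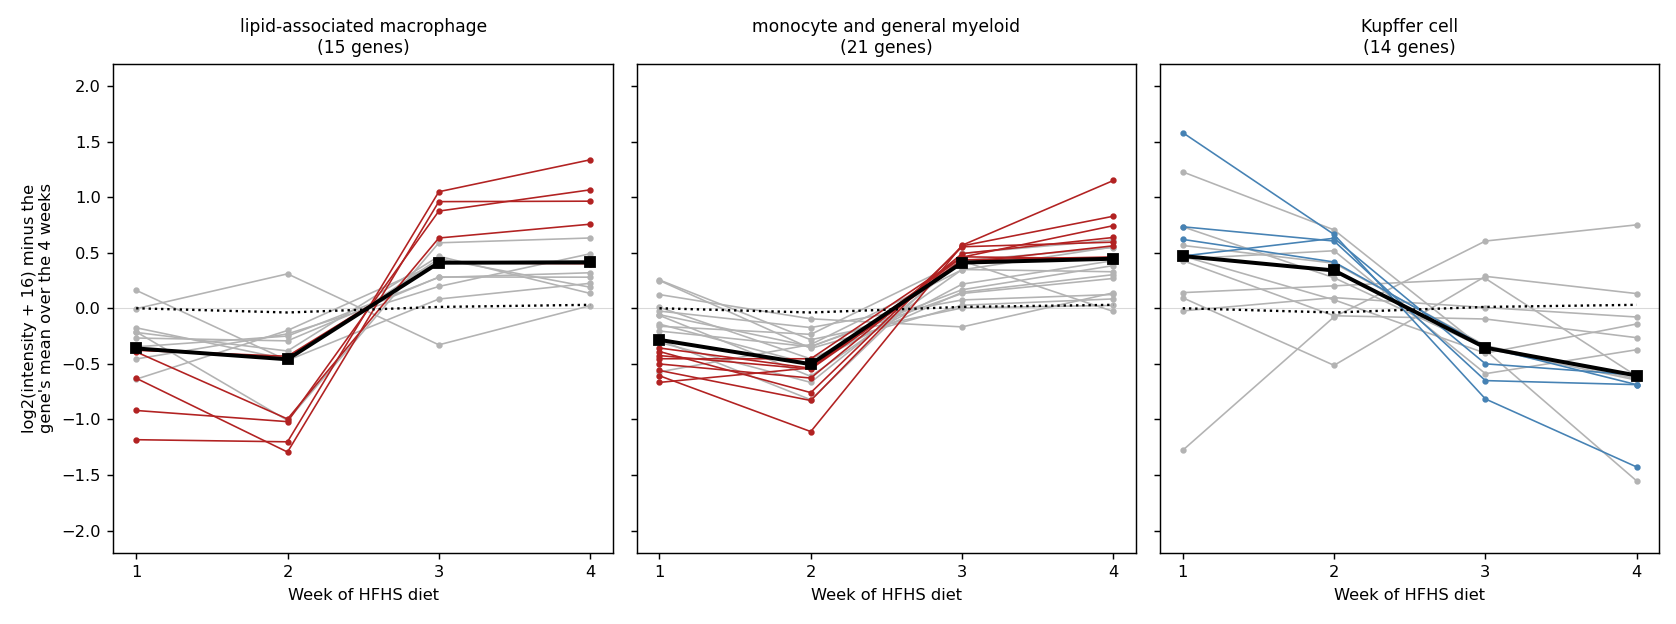
Each gene's log2(intensity + 16) minus its own mean over the 4 weeks, for the lists of lipid-associated macrophage, monocyte and general myeloid, and Kupffer cell genes in Pemt-/- liver; 1 array per week. Red lines rose and blue lines fell in weeks 3 and 4 (limma, adjusted p under 0.05), grey lines did not pass, the black line is the list median and the dotted line the median of all 12908 genes. The median of the first list went from -0.46 at week 2 to 0.41 at week 3, and that of the Kupffer list from 0.34 to -0.35.

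None of the 8 T and NK cell, 8 B and plasma cell and 9 neutrophil genes that were bright enough to be tested passed in limma, and the median differences were 0.13, 0.15 and -0.03. For the change per week an unadjusted p under 0.05 was seen in 0, 2 and 0 of them upward and 0, 0 and 1 downward. Cd8a, a T cell co-receptor, read 181, 191, 204 and 205 units and S100a8, an abundant protein of neutrophils, read 753, 400.4, 434 and 563. Other members moved more, and in different ways. On the T and NK list Gzma read 123, 84.7, 128 and 27.0, lowest at week 4. On the neutrophil list Ngp read 212, 149, 105 and 74.8, falling at each step, and Mmp8 read 42.3, 25.8, 92.1 and 68.3, higher on both late arrays. Their limma adjusted p were 0.759, 0.278 and 0.372. On the B and plasma list, 2 genes were higher on both late arrays and 2 were lower on both. The higher ones were Jchain, which joins secreted antibodies, at 119.8, 88.8, 212 and 344, and Blnk at 562, 635, 1278 and 1011 (limma adjusted p of 0.113 and 0.0814). Some lymphocyte genes outside these lists did pass, and are named after their values were seen. Themis, of T cell development, read 59.2, 53.8, 248 and 226, Il7r, a receptor of lymphocyte survival, read 99.0, 59.6, 265 and 283, and Igha, the heavy chain of IgA, read 367, 301, 914 and 2193. They rose 3.49, 3.10 and 4.12-fold (adjusted p of 0.0225, 0.0395 and 0.0388), and without week 4 the call of Il7r was lost (0.113), as was that of Igha without week 2 (0.0744). Of the 6 MHC class II genes, which present peptides on macrophages, dendritic cells and B cells, 1 rose, and both late arrays were above both early arrays for 5. H2-Aa read 5145, 6195, 11035 and 10133 and rose 1.87-fold (adjusted p = 0.0395), a call lost without week 3 (0.181) or week 4 (0.162). H2-Ab1 read 1478, 1373, 2207 and 2413 and H2-Eb1 read 2029, 1949.5, 3087 and 2881, both higher on the late arrays without passing (adjusted p of 0.110 and 0.160).

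Inflammatory signals of the liver rose in part. Of 24 acute phase genes 6 rose and 0 fell, while their median difference was 0.11. Lcn2, which binds bacterial iron carriers, read 4736, 2658, 15593 and 15705 units and rose 4.39-fold (limma adjusted p = 0.00783). Mt2, the second metallothionein on the list beside Mt1, read 1009.5, 1082, 3761 and 3486 and rose 3.43-fold (adjusted p = 0.00326). Both were far higher on the late arrays, and metallothioneins also respond to metals. Orm2, an acid glycoprotein, read 1678, 1778, 3878 and 3361, the serum amyloid gene Saa2 read 2921, 3186, 7939.7 and 5755, and Steap4, a metalloreductase, read 3914, 3232, 6651 and 7812. They rose 2.08, 2.21 and 2.02-fold (adjusted p of 0.0246, 0.0292 and 0.0321), and Saa genes are near copies of each other. Without week 3 the calls of Orm2 and Saa2 were lost (adjusted p of 0.107 and 0.123), and without week 4 those of Orm2 and Steap4 (0.0572 and 0.239). Of 20 chemokines and cytokines on the list 1 rose and 0 fell, and outside the list Il23a rose and Ccl24 fell, with the values above. The rise on the list was Cxcl1, which draws neutrophils, at 961, 880.3, 1863 and 2578 units and 2.36-fold higher late (adjusted p = 0.0284, and 0.181 without week 4). Il1rn, the natural blocker of the interleukin 1 receptor, read 179, 229, 283 and 417, the chemokine Ccl9 read 4424, 5992, 6544 and 8286, and Csf1, the growth factor of macrophages, read 275, 303, 417 and 461, with adjusted p of 0.318, 0.345 and 0.306. The 26 interferon genes had 0 rises and 0 falls, with an unadjusted p under 0.05 for the change per week in 2 upward and 0 downward, and a median difference of 0.04 that turned to -0.021 when arrays were centred on their medians. Ifit1 read 305, 1149.7, 791 and 411, highest at week 2.

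Matrix and duct markers were mostly higher late without any gene passing the test. Among 34 genes of stellate cells and matrix there were 0 rises and 0 falls in limma, 15 had an unadjusted p under 0.05 for an upward change per week and 0 for a downward one, and both late arrays were above both early arrays for 22. Timp1, an inhibitor of matrix proteases, read 230.4, 181, 394 and 578 units, and Pdgfrb, the growth factor receptor of stellate cells, read 1279, 1352, 2193 and 3075. Vim, the filament protein vimentin, read 3047, 2646, 4726 and 5693, and Ccn1, a secreted matrix protein, read 407, 547, 679.6 and 962. All 4 were highest at week 4, and their adjusted p were 0.0859, 0.0644, 0.0560 and 0.238. Acta2, the actin of activated stellate cells and smooth muscle, read 1020.3, 1605, 1343 and 2151, with overlap between early and late arrays (adjusted p = 0.660), and Tgfb1, a driver of fibrosis, read 107, 48.9, 111 and 120.0, lowest at week 2 (adjusted p = 0.653). Of 10 cholangiocyte and progenitor genes 0 rose and 0 fell in limma, 5 had an unadjusted p under 0.05 upward per week and 0 downward, and both late arrays were above both early arrays for 7. Krt19, the keratin of bile ducts, read 93.4, 108, 173 and 259, Epcam, a surface marker of duct and progenitor cells, read 122, 107, 165 and 416, Ehf, an epithelial transcription factor, read 39.1, 42.9, 77.0 and 117, and Cd24a, a progenitor surface protein, read 497, 409, 870.0 and 976. Krt19 and Ehf climbed at every step, and Epcam stood apart at week 4 (adjusted p of 0.199, 0.296, 0.319 and 0.0558).

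Genes of the fetal or tumour-bearing liver included 2 rises and 0 falls among 11. Ly6d, a small surface protein, read 2648, 2016, 7570 and 8399 units and rose 3.43-fold (limma adjusted p = 0.00521). Bex1, an adaptor protein, read 126, 99.5, 288 and 326 and rose 2.52-fold (adjusted p = 0.0445), a call lost without week 2 (0.0570), week 3 (0.0734) or week 4 (0.253). Both were low on the early arrays and high on the late ones. Tspan8, a tetraspanin, read 158, 76.4, 279 and 612 and did not pass (adjusted p = 0.103). Afp, the fetal albumin used as a marker of liver tumours, read 196, 381, 460.2 and 515, climbing at every step by 1.32 on the log2 scale in all (adjusted p = 0.337 for the late against the early weeks).

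Sinusoidal endothelial markers were mostly lower late. Of 20 genes 1 fell, 0 rose, and both late arrays were below both early arrays for 14, with a median difference of -0.51. Cdh5, the cadherin of endothelial junctions, read 835, 616, 282 and 254 units and was 2.59-fold lower (limma adjusted p = 0.0284, and 0.0709 without week 4). Clec4g, a lectin of sinusoidal cells, read 3558, 3231, 1992 and 1446, the scavenger receptor Stab2 read 1384, 1066, 852 and 569 and Oit3 read 683, 419.8, 366 and 271. These 3 dropped at each step and did not pass (adjusted p of 0.0553, 0.213 and 0.332). Of 33 hepatocyte genes 0 rose and 0 fell in limma, with 1 upward and 4 downward changes per week at an unadjusted p under 0.05, and the median difference was -0.18, or -0.031 under quantile normalisation. Arg1, the last enzyme of the urea cycle, read 21392, 26024, 21256 and 15853, and Tdo2, which degrades tryptophan, read 23272, 24599, 20884 and 14319, both highest at week 2 and lowest at week 4. Nr1i3, the receptor CAR that governs drug metabolism, read 1889.8, 1326, 1239 and 1029, and Hnf4a, the master factor of hepatocytes, read 9658, 8515, 8209 and 6642 (adjusted p of 0.447 and 0.574).

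**Figure D3:**
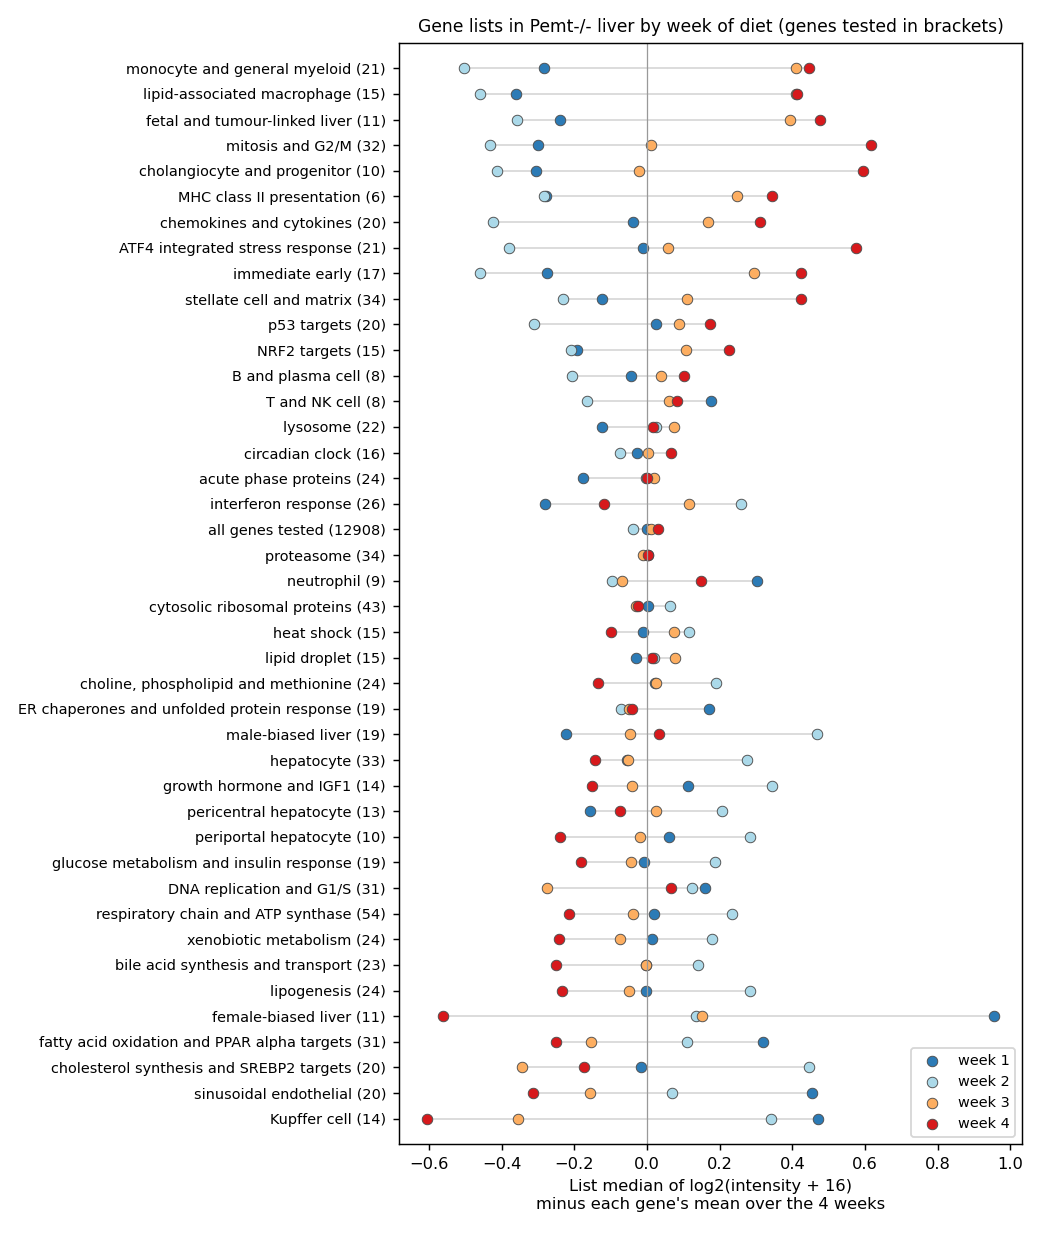
Median over gene lists of log2(intensity + 16) minus each gene's own mean over the 4 weeks, for Pemt-/- liver; 1 point per array, coloured by week, lists ordered by the late minus early difference and the number of genes tested in brackets. The myeloid list moved from -0.50 at week 2 to 0.45 at week 4 and the Kupffer list from 0.47 at week 1 to -0.60 at week 4, while the proteasome list stayed between -0.01 and 0.003.

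Most genes of fatty acid oxidation read lower late, and few passed. Of 31 genes of fatty acid oxidation and PPAR alpha targets, 3 fell, 0 rose, and both late arrays were below both early arrays for 25. Beside Cyp4a14 and Acot3, Cyp4a31 read 2878, 1774, 958 and 903 units and was 2.41-fold lower (limma adjusted p = 0.0445, and 0.0756 without week 4). Ehhadh, the bifunctional enzyme of peroxisomes, read 17686, 10806, 5913 and 6676, and Acot1, a cytosolic acyl-CoA thioesterase, read 4530, 1727, 718 and 953. Both were highest at week 1 and did not pass (adjusted p of 0.0596 and 0.0880). Fgf21, a fasting hormone counted with this list and with the stress genes below, read 4121, 494, 2081 and 8313, lowest at week 2 and highest at week 4. Of 24 lipogenic genes 1 fell and 0 rose, both late arrays were below both early arrays for 13, and the list median stood at -0.0040, 0.28, -0.05 and -0.23 relative to the mean of the 4 weeks. The fall was Me1, malic enzyme, at 6542, 4946, 2858 and 2346 units and 2.19-fold lower (adjusted p = 0.0334, and 0.162 without week 4). Elovl5, an elongase of fatty acids, read 29678, 34180, 22675 and 20447, Mlxipl, the sugar-sensing factor ChREBP, read 4829, 3861, 3718 and 2875, and Thrsp, a lipogenic nuclear protein, read 3523, 12067, 8956 and 3411, with adjusted p of 0.154, 0.482 and 0.925. Of 15 lipid droplet genes 1 rose and 0 fell. The rise was Cidec, which fuses droplets, at 347, 332, 942 and 1145 units, 2.97-fold higher and with no overlap of early and late arrays (adjusted p = 0.0107).

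Genes of cholesterol synthesis and uptake had their highest list median at week 2. It stood at -0.02, 0.45, -0.34 and -0.17 relative to the mean of the 4 weeks, 1 of 20 fell, 0 rose, and both late arrays were below both early arrays for 13. Other lists also had their highest median at week 2, among them the hepatocyte, lipogenic and respiratory chain lists at 0.27, 0.28 and 0.23, and the week 2 array was the one with the bright spike-ins, whose part was not tested. Fdps, which makes farnesyl diphosphate, read 6441, 5297, 3210.1 and 3166 units and was 1.83-fold lower late (limma adjusted p = 0.0455), a call lost without week 3 (0.152) or week 4 (0.287). Dhcr7, the last enzyme of the pathway, read 936, 2888, 1256 and 1614 and had its highest value at week 2, as the list did (adjusted p = 0.914). Nsdhl and Ebp, enzymes of the later steps, read 2581, 2467, 1748 and 1669 and 11990, 13454, 9900.5 and 8456, lower on both late arrays (adjusted p of 0.179 and 0.267). The sterol element TCACCCCAC was in 1 of 16 promoters of the list (6.25%) against 0.466% of all promoters, in the windows described below.

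Bile acid and drug metabolism genes moved in part. Of 23 bile acid genes 1 fell and 0 rose. The fall was Slco1a1, an uptake carrier of organic anions, at 5342, 6707, 2495 and 2308 units and 2.48-fold lower (limma adjusted p = 0.0131). Slc10a1, the main bile salt importer, read 14700, 14584, 8844 and 5799, lower on both late arrays (adjusted p = 0.0575), though the dimmer of its 2 probe sets passed, while Abcc3, an export pump, read 1925, 2564, 2663 and 3760.3, higher on both (adjusted p = 0.423). Cyp8b1, which sets the kind of bile acid made, read 1934, 8630.3, 2059 and 576, with a peak at week 2 and its lowest value at week 4 (adjusted p = 0.326). Of 24 genes of xenobiotic metabolism 2 fell and 0 rose. Cyp2c37 read 3439.5, 5589, 946 and 787 and was 5.01-fold lower (adjusted p = 0.00551), beside Cyp2c29. Cyp2j5, an epoxygenase of fatty acids, read 11425, 10805, 8976 and 7096 and did not pass (adjusted p = 0.291).

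Genes that differ between the sexes of the mouse, most of them set by the rhythm of growth hormone, moved both ways. Of 19 male-biased genes 1 rose and 2 fell. Serpina12 was the rise, with the values above, and Slco1a1 and Keg1 fell. Keg1 read 5496, 5115, 2818 and 2182 units and was 2.13-fold lower (limma adjusted p = 0.0283, and 0.217 without week 4). Cyp4a12a, a male-biased hydroxylase, read 795, 4025, 2828 and 5311, and Cyp2d9, another, read 5772, 12461, 12963 and 14597. Both were lowest at week 1 and highest at week 4 (adjusted p of 0.575 and 0.438). Of 11 female-biased genes 2 fell, Cyp2b9 and Acot3, and 0 rose. The list median stood at 0.955, 0.135, 0.151 and -0.561 relative to the mean of the 4 weeks, with weeks 2 and 3 nearly level. Of 14 genes of growth hormone and IGF1 signalling, 1 rose and 1 fell, and both are inhibitors of cytokine signalling. Cish read 298, 424, 1052 and 767 and was 2.46-fold higher (adjusted p = 0.0475), a call lost without week 1 (0.0530) or week 3 (0.141). Socs2 read 1153, 1079.8, 448 and 454 and was 2.42-fold lower (adjusted p = 0.0176). Igf1 itself read 15246, 16444, 11565 and 7756, and Igfals, which holds it in the blood, read 1114, 1129, 829.6 and 604, both lowest at week 4 (adjusted p of 0.159 and 0.233). Bcl6, a repressor that keeps up the male pattern, read 3480.1, 4679, 862 and 2482, with its low at week 3 (adjusted p = 0.179).

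Most genes of mitosis read higher late, above all at week 4, without passing the test on their brightest probe set, and most genes of DNA replication did not read higher. Of 32 genes of mitosis and G2/M, 0 rose and 0 fell in limma at the adjusted threshold. Both late arrays lay above both early arrays for 22, an upward change per week had an unadjusted p under 0.05 for 21 and a downward one for 0, and the list median stood at -0.30, -0.43, 0.01 and 0.62 relative to the mean of the 4 weeks. Cdc20, which starts anaphase by activating a ubiquitin ligase, read 1692, 2221, 3644 and 7573 units, and the dimmest of its 3 probe sets passed. Kif20a, a motor of cytokinesis, read 175, 179.7, 352 and 439, Prc1, which bundles the central spindle, read 403, 432, 659 and 944, and Cdca8, a subunit of the chromosomal passenger complex, read 585, 598, 893 and 1347. All 4 climbed at every step and were highest at week 4 (limma adjusted p of 0.0831, 0.0701, 0.126 and 0.141 for the late against the early weeks). Cenpe, the motor that holds chromosomes at the spindle, read 116, 103, 159 and 401, and Depdc1b, a mitotic protein, read 79.4, 42.5, 69.7 and 214, with week 4 apart from the others. Foxm1, the factor that drives these genes, read 76.2, 183, 15.6 and 96.7, out of step with the list (adjusted p = 0.531). It was dim, its week 3 value lay below the pseudocount of 16, and these values are from 1 of its 2 probe sets, of which 0 passed. The study followed the proliferation marker Ki67 and cyclin D1 as protein. Their genes Mki67 and Ccnd1 read 1094, 754, 1231 and 1568 and 6448, 4199.8, 4863 and 6836 (adjusted p of 0.334 and 0.884).

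Of 31 genes of DNA replication and G1/S, 0 rose and 0 fell in limma, with 1 upward and 5 downward changes per week at an unadjusted p under 0.05, and both late arrays were below both early arrays for 11. Mcm2, a subunit of the replicative helicase, read 1046, 760, 393 and 415 units, Mcm10, which helps to start it, read 631, 796, 376 and 361, and Tk1, thymidine kinase, read 474, 422, 300.3 and 279.9. They were lower on both late arrays (adjusted p of 0.0532, 0.0890 and 0.284). Cdc6, which loads the helicase, read 98.6, 42.2, 23.6 and 58.8, lowest at week 3, and Ccna2, cyclin A of S phase and mitosis, read 768, 656, 1002 and 1249, highest at week 4. Cdkn1a, the cell cycle inhibitor p21 that p53 switches on, read 1820.4, 1276, 3297 and 3586, low on the early arrays and high on the late ones, and rose 2.24-fold (adjusted p = 0.0356, and 0.112 without week 4). It passed on 1 of its 2 probe sets. It was the only one of 20 p53 targets to rise, and 0 fell. Plk3, a stress kinase, read 518, 373, 879 and 1341, Btg2, an antiproliferative gene, read 639, 751, 1134 and 1216, and the death receptor Fas read 900.3, 552, 590.4 and 476 (adjusted p of 0.0608, 0.119 and 0.637).

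**Figure D4:**
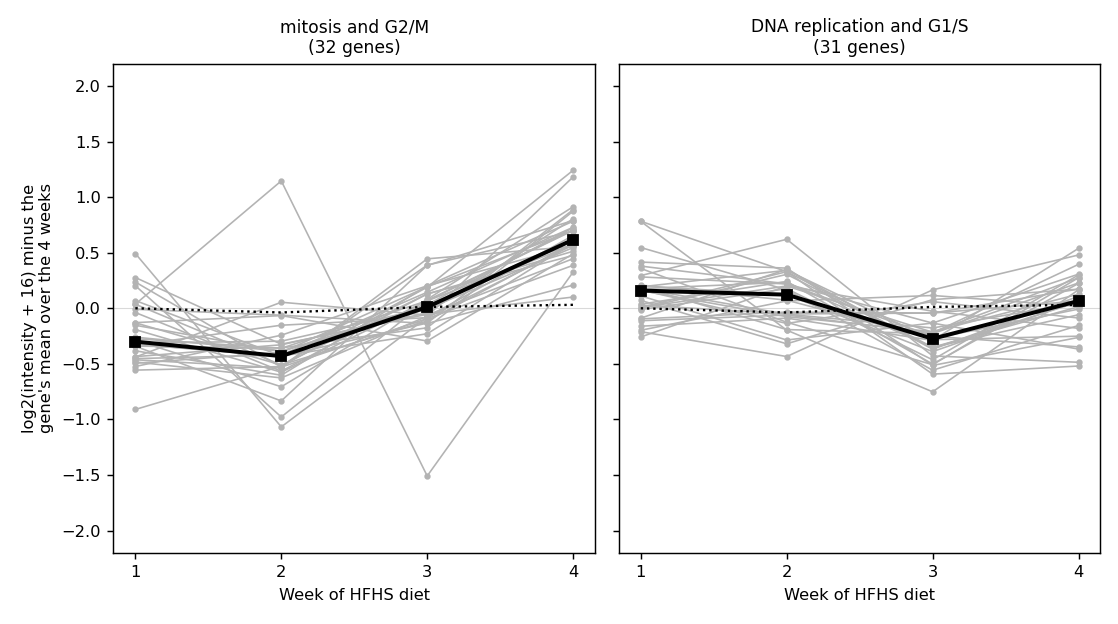
Each gene's log2(intensity + 16) minus its own mean over the 4 weeks in Pemt-/- liver, for 32 genes of mitosis and G2/M and 31 genes of DNA replication and G1/S; 1 array per week. Grey lines are genes, none of which passed, the black line is the list median and the dotted line the median of all genes. The mitosis median climbed from -0.43 at week 2 to 0.62 at week 4, while the replication median was lowest at week 3, at -0.27.

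The promoters of mitotic genes are known for CCAAT boxes and for the element named CHR. Both were searched for in the 250 bases before the start of each gene (RefSeq, GRCm38.p6, both strands). Matches to CHR were those to TTTGAA. Matches to TTCGAA also counted as CHR. CCAAT itself was in 21 of the 27 mitosis promoters on hand (77.8%) and CHR in 9 (33.3%), against 34.5% and 17.4% of all 27025 promoters. In 26 promoters of the replication list the shares were 65.4% and 19.2%. A match is a run of letters and not a measured binding site. The promoters of the 3 mitosis genes with the widest range over the weeks, among those with a sequence on hand, are printed to show where these letters lie, with every match in capitals, 5′ to 3′ on the gene's strand and ending at the base before the start.
Cdc20 (chr4:118437344-118437593, minus strand): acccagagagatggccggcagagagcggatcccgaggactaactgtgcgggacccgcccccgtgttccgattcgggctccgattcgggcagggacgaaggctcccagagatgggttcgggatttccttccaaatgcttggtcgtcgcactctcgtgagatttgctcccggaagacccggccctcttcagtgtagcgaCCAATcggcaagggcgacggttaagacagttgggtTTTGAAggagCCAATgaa
Cenpe (chr3:135212313-135212562, plus strand): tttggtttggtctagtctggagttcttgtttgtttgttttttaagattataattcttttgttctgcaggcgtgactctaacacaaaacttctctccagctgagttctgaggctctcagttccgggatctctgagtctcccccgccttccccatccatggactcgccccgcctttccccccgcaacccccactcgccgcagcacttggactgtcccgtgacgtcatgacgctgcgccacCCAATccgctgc
Ttk (chr9:83834439-83834688, plus strand): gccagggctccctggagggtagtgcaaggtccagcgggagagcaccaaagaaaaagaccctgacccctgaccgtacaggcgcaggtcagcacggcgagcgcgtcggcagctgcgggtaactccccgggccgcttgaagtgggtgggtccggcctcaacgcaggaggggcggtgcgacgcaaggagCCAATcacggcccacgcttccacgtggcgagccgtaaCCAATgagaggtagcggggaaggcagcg
Cdc20 held a CHR and a CCAAT pair within the last 53 bases before its start, Cenpe a single CCAAT and Ttk, a kinase of the spindle checkpoint, a CCAAT pair. Ttk read 189, 53.7, 122 and 214 units, highest at week 4.

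Stress genes were read as several lists. Of 15 targets of NRF2, the factor of oxidative stress, 3 rose, 0 fell, and both late arrays were above both early arrays for 11. Gsta2, a glutathione transferase, read 2404, 2873, 6052 and 8552 units and rose 2.73-fold (limma adjusted p = 0.0161). Srxn1, which repairs peroxiredoxins, read 1239.5, 1465, 2781 and 3585, and Gstm3, another transferase, read 8616, 6582, 14467 and 17026. They rose 2.33 and 2.08-fold (adjusted p of 0.0250 and 0.0334), and both calls were lost without week 4 (0.134 and 0.204). Pgd, of the pentose phosphate pathway, read 3878, 4447, 5732 and 6726 (adjusted p = 0.179). Of 17 immediate early genes, which respond to growth factors and stress within minutes, 1 rose and 0 fell. The rise was Klf6, a zinc finger factor, at 962, 1148, 2276 and 2815 units and 2.39-fold higher (adjusted p = 0.0225, and 0.107 without week 4). Jun, a subunit of AP-1, read 1701, 1876, 3088 and 4524, and Myc read 248, 119, 406 and 919.9, both highest at week 4 (adjusted p of 0.0553 and 0.116).

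Of 21 genes of the ATF4 integrated stress response, which cells use when amino acids or protein folding fail, 1 rose and 0 fell. Both late arrays were above both early arrays for 11 and below them for 2. The list median stood at -0.011, -0.379, 0.057 and 0.574 relative to the mean of the 4 weeks. Its low was on the week 2 array, the one with the bright spike-ins, whose part was not tested. The rise was Asns, asparagine synthetase, at 352, 245, 730.1 and 803 units and 2.52-fold higher (limma adjusted p = 0.0349, and 0.112 without week 4). Atf3, a stress-induced repressor, read 504, 366, 964 and 2036, Trib3, a pseudokinase that damps the response, read 657, 516, 686 and 1655, and Slc3a2, an amino acid carrier subunit, read 1419, 1525, 1838 and 2376. All 3 were highest at week 4 (adjusted p of 0.0575, 0.407 and 0.321). Vldlr, a lipoprotein receptor, read 463, 229, 124 and 136, lower on both late arrays (adjusted p = 0.153). Atf4, the factor itself, read 4238, 3506, 4554 and 6459 (adjusted p = 0.392). Its known composite element TGATGCAA was in 4 of 18 promoters of the list (22.2%) against 0.818% of all promoters, searched in the same 250 bases and on both strands, and the element TGACGTCA was in 0 of 18 (0%) against 1.62%. The promoters of the 3 genes of the list with the widest range over the weeks, among those with a sequence on hand, are printed in the same way, with the match in capitals (TTGCATCA, which is TGATGCAA on the other strand).
Fgf21 (chr7:45615491-45615740, minus strand): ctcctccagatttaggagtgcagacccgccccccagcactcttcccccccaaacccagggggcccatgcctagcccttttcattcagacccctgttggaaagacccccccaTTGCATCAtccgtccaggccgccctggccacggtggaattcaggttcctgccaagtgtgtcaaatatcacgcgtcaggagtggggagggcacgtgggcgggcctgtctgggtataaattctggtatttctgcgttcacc
Chac1 (chr2:119350992-119351241, plus strand): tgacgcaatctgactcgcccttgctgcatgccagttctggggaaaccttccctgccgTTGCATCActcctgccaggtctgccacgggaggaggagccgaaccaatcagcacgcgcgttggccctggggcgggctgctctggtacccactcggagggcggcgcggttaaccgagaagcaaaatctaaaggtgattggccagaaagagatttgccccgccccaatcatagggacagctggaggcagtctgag
Atf3 (chr1:191183334-191183583, minus strand): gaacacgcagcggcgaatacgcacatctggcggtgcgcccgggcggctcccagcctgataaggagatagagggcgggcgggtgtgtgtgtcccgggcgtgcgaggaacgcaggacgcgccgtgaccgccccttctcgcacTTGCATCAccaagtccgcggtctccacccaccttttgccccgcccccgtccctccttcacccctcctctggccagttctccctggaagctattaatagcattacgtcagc
Each of them held 1 match, on the strand opposite to the gene. Chac1, which degrades glutathione, read 539.5, 162, 417 and 1014 units.

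**Figure D5:**
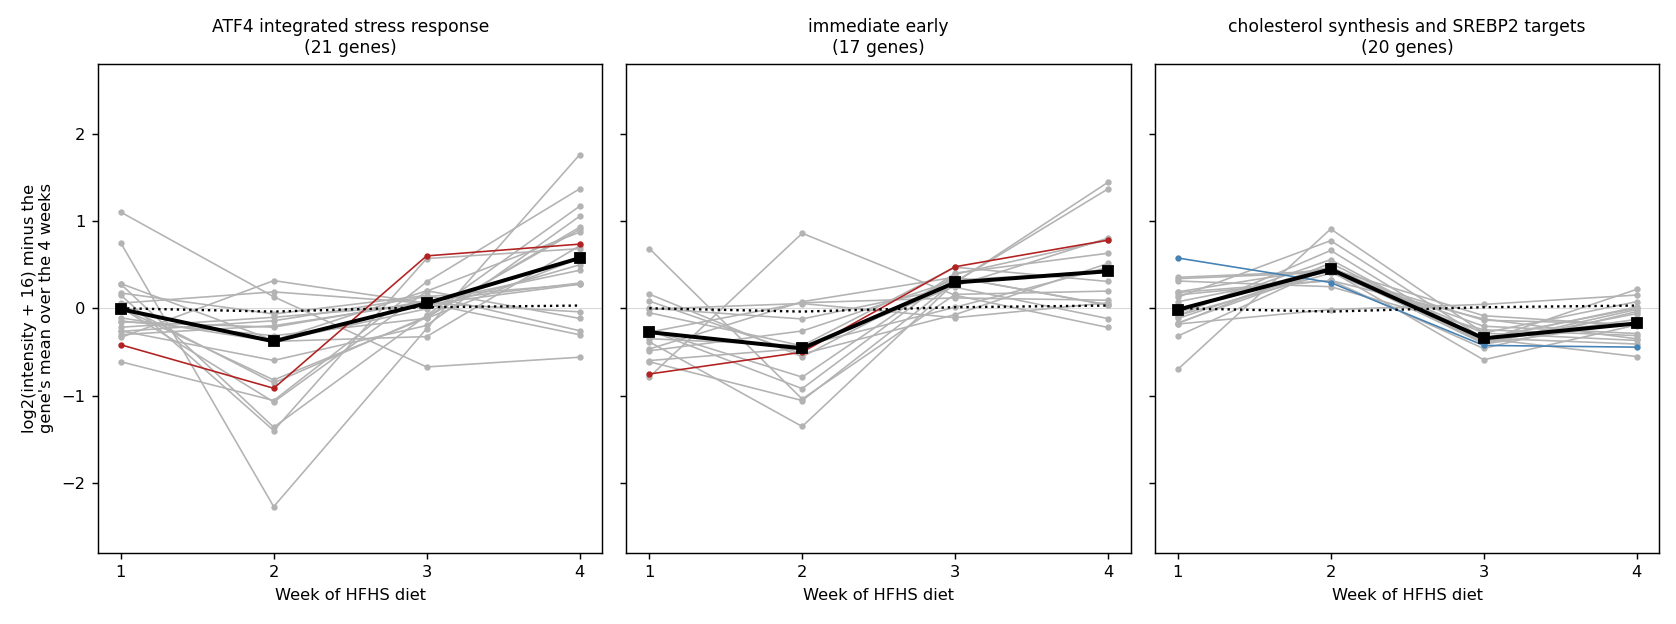
Each gene's log2(intensity + 16) minus its own mean over the 4 weeks in Pemt-/- liver for the ATF4, immediate early and cholesterol lists; 1 array per week. Red lines rose and blue lines fell in weeks 3 and 4 (limma, adjusted p under 0.05), grey lines did not pass, black is the list median and dotted the median of all genes. The ATF4 and immediate early medians were lowest at week 2 and highest at week 4, and the cholesterol median was highest at week 2, at 0.45.

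The list of endoplasmic reticulum chaperones, which fold secreted proteins, had its highest median at week 1. Of 19 genes 0 rose and 0 fell in limma, with 0 upward and 5 downward changes per week at an unadjusted p under 0.05, and the list median was 0.17 at week 1 and between -0.07 and -0.04 afterwards. Sdf2l1, a chaperone partner, read 4776, 1799, 2298 and 2016 units, Creld2 read 5679, 3105, 3366 and 3085, and Herpud1, which helps to clear misfolded proteins, read 12637, 7706, 7719 and 7438. All 3 were highest at week 1 (adjusted p of 0.738, 0.660 and 0.594). The sequence CCACG, core of the ER stress element, was in 76.5% of 17 promoters of this list against 28.2% of all. Of 15 heat shock genes 0 rose and 0 fell, with 1 upward and 2 downward changes per week at an unadjusted p under 0.05. Hspa1b read 8611, 6509, 6875 and 4729, lowest at week 4, and Hspb1 read 1795, 3532, 3786 and 3787, lowest at week 1 (adjusted p of 0.566 and 0.483). The sequence GAANNTTC was in 5 of 12 heat shock promoters (41.7%) against 6.78% of all.

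Lists of energy, protein turnover and housekeeping had no gene past the threshold. Of 54 genes of the respiratory chain and ATP synthase 0 rose and 0 fell in limma, 0 had an upward and 9 a downward change per week at an unadjusted p under 0.05, and both late arrays were below both early arrays for 36, with differences from -0.64 to -0.06. Uqcrfs1, the iron-sulphur protein of complex III, read 12604, 11279, 8852 and 7975 units, and Sdhd, of complex II, read 7992, 8627, 6092 and 4665 (adjusted p of 0.207 and 0.163). The lists of 34 proteasome, 43 cytosolic ribosomal, 22 lysosome, 16 clock, 19 glucose and 24 choline, phospholipid and methionine genes had 0 rises and 0 falls, with 0, 1, 3, 2, 0 and 0 upward and 0, 1, 0, 2, 1 and 2 downward changes per week at an unadjusted p under 0.05. Their median differences were -0.01, -0.05, 0.12, 0.12, -0.21 and -0.09, and the first pair turned to 0.032 and 0.051 under quantile normalisation. Among genes near the missing enzyme, Cept1, an enzyme of the CDP-choline pathway to phosphatidylcholine, read 6265, 4678, 3672 and 3357, and Bhmt, which remethylates homocysteine with betaine, read 24067, 50661, 42374 and 38771 (adjusted p of 0.196 and 0.852). Ctsd, a lysosomal protease, read 5796, 6199, 8944 and 9208, and the clock factor Arntl read 1219, 978, 746 and 774 (adjusted p of 0.119 and 0.320). Clock genes moved both ways, with 5 higher on both late arrays and 3 lower. Nfil3 read 2844, 2556, 1823 and 2096, lower like Arntl. Dbp read 227, 258, 416 and 394 and Bhlhe40 read 2052, 2613, 3267 and 3317, both higher. None of these 3 passed (limma adjusted p of 0.315, 0.206 and 0.289). The part of time of day in these values was not tested. The E-box CACGTG was in 3 of 14 clock promoters (21.4%) against 6.05% of all.

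The pericentral and periportal lists of hepatocyte genes, 13 and 10 genes, had 0 rises and 0 falls, with 0 and 0 upward and 1 and 2 downward changes per week at an unadjusted p under 0.05. Hal, a periportal enzyme of histidine breakdown, read 4895, 8295, 4429 and 2547 units, and Cyp1a2, a pericentral cytochrome P450, read 11106, 16883, 15431 and 16621 (adjusted p of 0.264 and 0.757). Of the 20 pancreas, adipose and erythroid genes listed as signs of other tissue, 12 were matched to a probe set, and 5 of these were bright enough to be tested. Of the 5, 0 rose and 0 fell in limma, with 1 upward and 0 downward changes per week at an unadjusted p under 0.05. Alas2, of red cell precursors, read 472, 1033, 570.3 and 486, and Cela1, an elastase, read 1202, 1599, 1279 and 1182, both highest at week 2. Other members of the list went other ways. Retn, an adipose gene, read 7.53, 61.9, 131 and 123, higher on both late arrays, and was the upward change per week. Prss2, a pancreas gene, read 101, 82.7, 11.9 and 49.5, lower on both late arrays. Neither passed (limma adjusted p of 0.223 and 0.295), and each lay below the pseudocount at its lowest week. Of the other genes followed by the study, Fbxo31 read 248, 289.8, 405 and 260.4, Cltc, the clathrin heavy chain, read 9834, 9415, 10775 and 11625, and the kinase Akt1 read 593, 569, 709.6 and 697 (adjusted p of 0.779, 0.652 and 0.657).

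A further set of genes stood apart at 1 week, at least 1 on the log2 scale above or below each of the other weeks; with 1 array per week these are values without a test. At week 1, 18 genes (0.139%) were apart above and 54 (0.418%) below. At week 2 they were 15 (0.116%) and 113 (0.875%), at week 3, 6 (0.0465%) and 42 (0.325%), and at week 4, 21 (0.163%) and 48 (0.372%). Week 2 thus had the most genes apart below, and it was also the week whose array differed in its spike-in signal. Week 2 was high for Cyp8b1, for Cyp2c54, a cytochrome P450 at 2899.9, 9559.8, 1581 and 826 units, and for Hsd3b5, a male-biased steroid enzyme at 487, 1649.6, 167 and 460.0. It was low for Fgf21, for the matrix protein Svep1 at 144, 22.2, 264 and 340.5, and for the chemokine Cxcl5 at 95.7, 2.86, 123 and 142. Week 1 was low for Npy, neuropeptide Y, at 11.7, 92.0, 138 and 127, for Golga7b at 14.3, 175, 144 and 186 and for Oas1c, of the antiviral OAS family, at 1.87, 92.6, 84.9 and 91.0. Week 3 was high for Akr1c18, a progesterone-degrading enzyme, at 288, 215, 692 and 329, and for Sema6c, a semaphorin, at 52.5, 156, 379.9 and 162. It was low for the transcription factor Atoh8 at 205, 147, 18.5 and 191 and for Gins3, of the replication fork, at 108, 88.2, 12.9 and 99.4. Week 4 was high for Dmbt1, a mucosal scavenger protein, at 0.985, 45.9, 1.55 and 870.1, and low for the sterol transporter Abcg4 at 212, 242, 167 and 32.1 and for Mmd2 at 499, 1018, 428 and 104. Many of these genes lay near the floor of the array at the low week, so the size of the gap leans on the pseudocount.

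Steps from week to week were read as values without a test. At least 2-fold on the log2(intensity + 16) scale, 185 genes were higher and 282 lower at week 2 than at week 1, 410 higher and 189 lower at week 3 than at week 2, and 128 higher and 128 lower at week 4 than at week 3. The root mean square of the step over 12908 genes was 0.449, 0.473 and 0.358, and the median size of the step was 0.259, 0.237 and 0.173, so which of the first and middle steps was wider depended on the measure. Cyp4a14, Gpnmb, Lgals3, Serpinb6b and Fcna made nearly all of their change in the middle step, and Cdc20, Cenpe, Epcam, Dmbt1 and Fgf21 made a large one after week 3.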

How the data were processed

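The deposited values were the intensity of each probe set on a linear scale, which the authors had scaled to a trimmed mean of 500 on every array (2% left out at each end). Affymetrix Expression Console is named in the submitters' processing notes, without a version, and the method of summarising probes was not stated. From the table of 45101 probe sets, 64 controls were left out. GEO's annotation of the array gave 34945 probe sets 1 gene, 932 several and 9160 none, and 34741 matched the RefSeq table of GRCm38.p6.

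The 4 Pemt-/- arrays were taken as log2(intensity + 16), and probe sets were kept above the 40th percentile of the mean. Weeks 3 and 4 against 1 and 2, and week as a number, were tested by limma (version 3.58.1, R 4.3.3) with lmFit and eBayes (with an intensity trend, 2 residual degrees of freedom), two-sided, with Benjamini-Hochberg adjustment over all probe sets kept. The script was tested on simulated data. The arrays of a contrast are different weeks, so its p-values cover only the spread seen among them, which may be technical, and the number of arrays limits the precision.

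The members, the 43 gene lists and the tests were chosen with earlier results of these data known. Each gene was read through its probe set with the highest mean. Other probe sets of a called gene did not always pass. Besides the tallies given above, 1 of 2 passed for Asns, Me1, Steap4, Serpina12 and Cyp4a31. The tally was 1 of 3 for Cxcl1, 1 of 4 for Srxn1, 2 of 4 for Socs2, 2 of 5 for Klf6 and 3 of 4 for H2-Aa. Named genes were those of the study, the largest differences (6 each way), the largest slopes among ordered changes (12 each way), up to 5 genes for each week apart in each direction, and for each list up to 4 members with the smallest p for the change per week and the member with the widest range. The list members that passed the test are also named, as are a few members that stand for their list, a choice made after their values were seen. Not every gene this rule gives is printed, and those left out, mainly in lists without a call or apart at 1 week, were also chosen after their values were seen. Alternatives were other filters, pseudocounts, quantile normalisation, median centring, no intensity trend, all 8 arrays, the mean of a gene's probe sets, and leaving out each week.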

Additional observations from a re-analysis of the deposited data

Results flagged for a closer look

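Over the 4 weeks, 94 measures were checked for a single array far from the others, by the gap to the nearest array over the whole range (Dixon's test), and 6 passed. Chance flags about 1 in 20 such groups, and the part of any technical cause was not tested. At week 2 the share of signal in the 100 brightest probe sets was 10.48%, the spike-in controls stood at 1.211 times their 4-array mean, and Tgfb1, a driver of fibrosis, read 48.9 intensity units against 107, 111 and 120.0 at weeks 1, 3 and 4. Also at week 2, the median of the pancreas, adipose and erythroid list lay 0.289 above the mean of the 4 weeks on the log2 scale. Not all members of that list were highest at week 2, since Retn was highest at week 3 and Prss2 at week 1. At week 1 the median of the acute phase list was -0.176 and that of the endoplasmic reticulum chaperones was 0.171 relative to the mean of the 4 weeks.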

How the results depend on the processing

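No paired analysis was possible because the replicate numbers are the weeks, which are compared within 1 genotype. Against 122 probe sets higher and 75 lower late, keeping dim probe sets gave 5 and 3, the fit without an intensity trend 0 and 0, and the fit with all 8 arrays 52 higher. Against 81 genes higher and 47 lower, the mean of each gene's probe sets gave 83 and 42. Leaving out 1 week gave 54 to 435 higher and 55 to 190 lower. For the change per week, with 0 calls, quantile normalisation gave 13 rising and 25 falling, median centring 2 and 6, all 8 arrays 8 and 21, and leaving out 1 week 0 to 554 and 0 to 486. Against 141 ordered rises and 117 falls, dim probe sets gave 244 and 178, the 60th percentile filter 90 rises, and a pseudocount of 64, 76 and 73. Genes apart at weeks 1 to 4 numbered 72, 128, 48 and 69 in the main setting, 221, 320, 198 and 204 with dim probe sets, 23, 43, 4 and 25 with the 60th percentile filter, 110, 207, 81 and 119 with a pseudocount of 1, and 18, 32, 4 and 22 with one of 64. Causes were not tested, though a looser filter adds dim probe sets and a small pseudocount widens their differences by construction.

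In called genes the early and late arrays did not overlap. Their direction could therefore turn only under quantile normalisation, median centring or the mean of a gene's probe sets. The 128 called genes kept their direction in every setting where they were measured. Of them 8 stayed called with dim probe sets kept, 0 without the trend (lowest adjusted p 0.064), 62 with all 8 arrays, and 124, 113, 97 and 53 without weeks 1 to 4, while 27 passed in every setting but those without trend or filter. With all 8 arrays the calls of Cyp4a14 (adjusted p = 0.0608), Lcn2 (0.217), Ly6d (0.405), Saa2 (0.751), Scara5 (0.232) and Trem2 (0.0611) were among those lost. Some small differences that did not pass turned sign. That of Pemt was -0.039 under quantile normalisation, -0.0224 under centring and -0.12 to 0.202 over single weeks left out. That of Adgre1 was -0.00726, -0.0347 and -0.24 to 0.298 in the same order. Akt1 was -0.00231 and Fbxo31 -0.000119 with the mean of probe sets, and over single weeks left out Fbxo31 ran from -0.0387 to 0.569 and Ccnd1 from -0.161 to 0.456. Of 43 list medians, those of the interferon, heat shock, cytosolic ribosomal and proteasome lists changed sign under a scaling. Over all lists the largest shift was 0.149, that of the hepatocyte list under quantile normalisation, and scaling moved the median of all genes by under 0.1. Depth is not defined for arrays, and genes near the background limit the folds of dim genes.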
